A study of Mus musculus with 16 samples.

Results

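The fibrillins and their partners build the microfibrils of the extracellular matrix. Fibrillin molecules polymerise into fine beaded filaments, other glycoproteins decorate them, and in elastic tissues such as the lung elastin is laid down on this scaffold and then cross-linked by lysyl oxidases. Microfibrils also hold latent growth factors of the TGF-beta and BMP families in the matrix. Messenger RNA levels of 8 such genes are described here in cultured lung fibroblasts: the fibrillin genes Fbn1 and Fbn2, the microfibril-associated protein genes Mfap2, Mfap4 and Mfap5, the emilin genes Emilin1 and Emilin2, and Adamtsl4. They are 8 of 23190 gene or transcript names tested. They were taken as every non-control probe whose gene name on the array is one of the 8, which gave 10 probes of 55681, with 2 probes each for Fbn2 and Mfap2. All 10 were well above background on 4 of 4 arrays in each group and are among the 32430 probes tested.

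Primary mouse lung fibroblasts, a culture of cells taken from the organ and passaged at least 3 times, received an siRNA and were collected 48 hours later. An siRNA is a short double-stranded RNA that directs the degradation of a matching messenger RNA. The groups were siLox, siLoxL1 and siLoxL2, with siRNA against the lysyl oxidase genes Lox, Loxl1 and Loxl2, and scr, with a scrambled siRNA, at 4 one-colour arrays each. The strain and age of the mice are not given in the sources used here, nor is it said whether replicates were separate cultures, so the p-values rest on a spread between samples that may be technical.

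All siLox and scr arrays lay on one slide (slide 1), in separate rows, and all siLoxL1 and siLoxL2 arrays on another (slide 2), in separate rows and read on another scanner model. The comparisons siLox against scr and siLoxL1 against siLoxL2 therefore lie within a slide, where slide row and siRNA cannot be told apart. In siLoxL1 against scr and siLoxL2 against scr, slide, scanner and siRNA cannot be told apart. Between 49.2% and 52.3% of the spots were well above background on slide 1 and between 60.4% and 63.1% on slide 2. The slides were parted by the first principal component (68.7% of the variance), and siLox and scr by the second (9.12%). The median SD within a group was 0.145 in siLox, 0.100 in siLoxL1, 0.0979 in siLoxL2 and 0.183 in scr. Each level below is the log2 signal minus that of the array's 75th percentile and compares 1 probe between arrays, never 2 probes. Each array is a bulk sample in which fewer cells of a type and less RNA per cell cannot be told apart.

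The targeted gene Lox read 0.39, 0.89, 1.25 and 2.04 in siLox replicates 1 to 4, against 4.16, 4.08, 4.15 and 3.88 in scr, so siLox replicate 4 kept the most Lox. Loxl1 averaged 4.60 ± 0.08 in siLoxL1 and 5.75 ± 0.07 in siLoxL2 (SD, n = 4 each). The brightest Loxl2 probe averaged 5.73 ± 0.22 in siLox, 5.69 ± 0.10 in siLoxL1, 5.38 ± 0.14 in siLoxL2 and 6.45 ± 0.29 in scr (SD, n = 4 each). Its mean was lowest in siLoxL2, but it was also below scr in siLox and siLoxL1, whose siRNAs target other genes. All 8 fibroblast markers were above background on every array, with list means from 4.20 to 4.97 in siLox, 5.0 to 5.11 in siLoxL1, 4.98 to 5.07 in siLoxL2 and 4.89 to 5.31 in scr. Of 7 epithelial markers Epcam, Cdh1, Sftpc and Sftpb were not well above background throughout any group. Krt8 averaged 1.23 in siLox, −3.28 in siLoxL1, −3.40 in siLoxL2 and 0.96 in scr. In the same order Krt18 averaged 1.64, −1.29, −1.41 and 2.00, and Scgb1a1 −4.45, −4.32, −4.25 and −4.23. Scgb1a1 was above background on 2 of 4 siLox arrays and on 4 of 4 in each other group. All 7 leukocyte and macrophage markers were measured, and their list mean lay between 0.00 and 0.25 in siLox, −0.04 and 0.10 in siLoxL1, 0.00 and 0.19 in siLoxL2, and −0.67 and 0.12 in scr. Pericyte and smooth muscle markers (8 of 8 measured) lay between 2.27 and 2.69 in siLox, 2.03 and 2.34 in siLoxL1, 2.11 and 2.61 in siLoxL2, and 2.68 and 3.18 in scr. Mesothelial markers (4 of 4 measured) lay between 0.49 and 0.59 in siLox, −0.28 and 0.076 in siLoxL1, −0.32 and 0.022 in siLoxL2, and 0.79 and 1.02 in scr, and 5 of 6 endothelial markers between −3.34 and −3.19, −4.03 and −3.47, −3.82 and −3.03, and −3.21 and −2.98 in the same order. The part of these markers in the results below was not tested.

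The probes that carry the results have known positions in mouse build mm9, given by the array design. The Fbn1 probe lies on chr2:125126727-125126786 (minus strand), Mfap4 on chr11:61302147-61302206, Mfap5 on chr6:122478591-122478650, Emilin2 on chr17:71601638-71601697 (minus strand) and Adamtsl4 on chr3:95480135-95480194 (minus strand). The 2 Mfap2 probes lie on chr4:140571828-140571887 and chr4:140570920-140570979. The Emilin1 probe of 60 bases covers 457 bases of the genome, chr5:31222545-31223001, in the design version of slide 1, and is listed as unmapped in that of slide 2. It is shown here with the second Mfap2 probe, because the Emilin1 result within slide 2 rests on this one probe and the Mfap2 result was read by a pair of probes; no base is in capitals because no part of a probe is singled out.
Mfap2 probe 2: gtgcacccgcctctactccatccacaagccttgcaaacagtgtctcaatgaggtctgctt
Emilin1: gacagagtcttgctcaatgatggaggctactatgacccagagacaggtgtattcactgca

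RefSeq promoters (build GRCm38.p6) were found for 5 of the 8 genes, Fbn1, Mfap2, Emilin1, Emilin2 and Adamtsl4. The 250 bases before the start are printed for Adamtsl4 and Emilin2, whose siLox and scr arrays did not overlap, and for Fbn1, which encodes the main microfibril protein. They are chr3:95687918-95688167 (minus strand) for Adamtsl4, chr17:71311557-71311806 (minus strand, the outer of 2 listed starts) for Emilin2 and chr2:125506439-125506688 (minus strand) for Fbn1. Capitals mark matches, on either strand, to the GC box GGGCGG, the TATA box TATAAA, the AP-1 motif TGANTCA, the TEAD motif GGAATG or the SMAD motif CAGAC, none of which overlap in these windows.
Adamtsl4 promoter: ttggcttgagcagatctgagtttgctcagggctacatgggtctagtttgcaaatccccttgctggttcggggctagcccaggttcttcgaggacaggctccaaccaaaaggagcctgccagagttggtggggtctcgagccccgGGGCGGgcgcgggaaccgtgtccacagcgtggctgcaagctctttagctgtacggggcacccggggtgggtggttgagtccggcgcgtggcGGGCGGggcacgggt
Emilin2 promoter: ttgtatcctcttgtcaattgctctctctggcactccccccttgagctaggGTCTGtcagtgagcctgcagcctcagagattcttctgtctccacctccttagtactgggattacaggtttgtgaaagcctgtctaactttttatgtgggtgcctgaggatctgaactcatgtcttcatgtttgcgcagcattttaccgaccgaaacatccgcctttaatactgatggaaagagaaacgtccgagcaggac
Fbn1 promoter: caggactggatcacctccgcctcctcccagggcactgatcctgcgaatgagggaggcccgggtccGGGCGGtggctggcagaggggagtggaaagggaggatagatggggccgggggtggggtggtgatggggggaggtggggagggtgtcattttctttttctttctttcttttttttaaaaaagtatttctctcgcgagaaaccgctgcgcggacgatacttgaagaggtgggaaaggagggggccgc
The Adamtsl4 window held 2 GC boxes and the Fbn1 window 1, the printed Emilin2 window held 1 SMAD motif, and the Emilin1 window, not printed, held 2 SMAD motifs. The window of the other Emilin2 start, not printed, held 1 GC box, 1 TEAD motif and 1 SMAD motif. Of 2 Mfap2 windows, not printed, 1 held 2 GC boxes and the other held 1 TEAD motif and 1 SMAD motif. No TATA box and no AP-1 motif was found in the windows of these 5 genes. Of 32851 promoters of the same length, 32.7% held the GC box, 12.4% the TATA box, 6.75% the AP-1 motif, 12.6% the TEAD motif and 42.2% the SMAD motif. G and C made up 64.4% of the Adamtsl4 window, 48.4% of the printed Emilin2 window and 59.2% of the Fbn1 window.

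**Figure D1:**
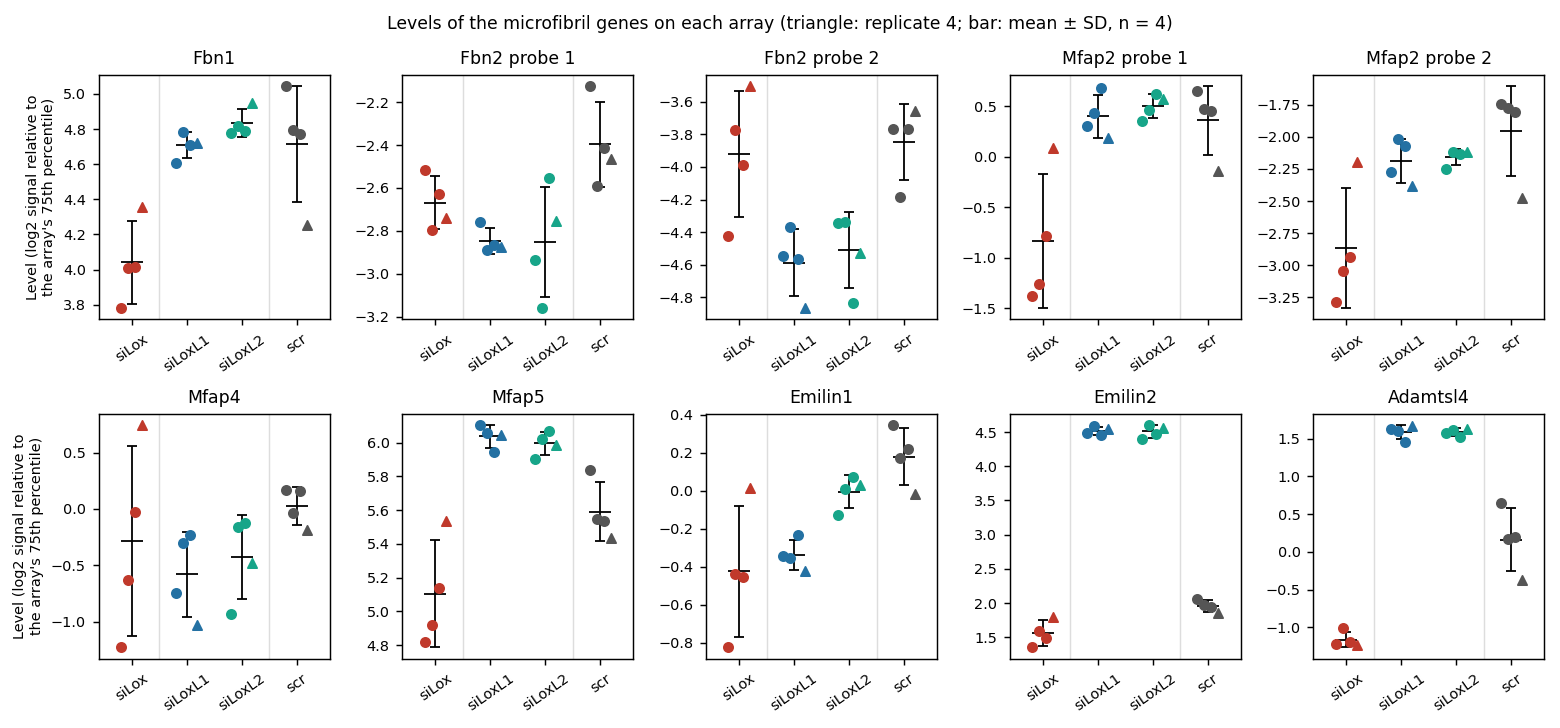
Level of each of the 10 probes (y axis, log2 signal minus that of the array's 75th percentile) in siLox, siLoxL1, siLoxL2 and scr (x axis), with 1 point per array, triangles for replicate 4 and bars for the mean ± SD (n = 4). Adamtsl4 and Emilin2 part siLox from scr without overlap and stand highest in siLoxL1 and siLoxL2, whereas Mfap4 spreads from −1.23 to 0.74 within siLox.

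Within slide 1, transcripts of 5 of the 8 genes were lower in siLox than in scr: Adamtsl4, Mfap2, Fbn1, Emilin1 and Emilin2, at 39.9% to 75.9% of the scr level. By the limma test, adjusted over all probes (threshold 0.05), 6 of the 10 probes fell and 0 rose; by the same test 21.1% of all probes tested passed in either direction and 11.5% were lower. The median difference of the 10 probes was −0.54, beside −0.05 for all probes tested. Of the 6 calls, Adamtsl4 alone was kept when any of the 8 arrays was left out. The other 5 were kept without scr replicate 4 or without siLox replicate 4 and lost without any of the other 6 arrays (adjusted p up to 0.109), so that the count of called probes lay between 1 and 7. They were also lost when dim probes were kept in the test (adjusted p from 0.0791 to 0.0898).

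Adamtsl4 encodes a secreted ADAMTS-like glycoprotein that has no protease domain and binds fibrillin microfibrils. Its level was −1.22, −1.01, −1.19 and −1.23 in siLox, against 0.65, 0.17, 0.20 and −0.37 in scr. Every siLox array lay below every scr array, and siLox replicate 4 was as low as the other siLox arrays. The difference was −1.32 ± 0.20 (log2, SE, n = 4 each; limma adjusted p = 0.00915), which left 39.9% of the scr level. With 4 arrays against 4, the two-sided exact permutation p was 0.0286, the lowest that so few arrays can give.

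Fbn1 encodes the main fibrillin of adult microfibrils. Its level was 3.78, 4.01, 4.02 and 4.36 in siLox, against 5.04, 4.80, 4.77 and 4.25 in scr. The groups overlapped only through replicate 4, which was the highest of the siLox arrays and the lowest of the scr arrays. The difference was −0.68 ± 0.19 (limma adjusted p = 0.0406; exact two-sided permutation p = 0.0571), or 62.6% of the scr level.

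Fbn2 encodes a fibrillin that is best known from developing tissue, and its 2 probes, on chr18:58168440-58168499 and chr18:58171972-58172031 (mm9, minus strand), did not pass between siLox and scr. Probe 1 read −2.52, −2.80, −2.63 and −2.74 in siLox, against −2.12, −2.59, −2.41 and −2.46 in scr, a difference of −0.27 (95% interval −0.54 to −0.01, limma adjusted p = 0.119). Probe 2 read −4.42, −3.77, −3.99 and −3.50 in siLox, against −3.76, −4.19, −3.77 and −3.66 in scr, a difference of −0.08 (95% interval −0.55 to 0.40, adjusted p = 0.813). At both probes the groups overlapped. The 2 probes did not follow each other over the arrays (r = −0.25 over 16 arrays after each slide's mean was subtracted).

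Mfap2 encodes a small glycoprotein (MAGP-1) that binds fibrillins along the microfibril. Probe 1 read −1.38, −1.26, −0.78 and 0.09 in siLox, against 0.66, 0.47, 0.45 and −0.14 in scr, and probe 2 read −3.28, −3.04, −2.93 and −2.20 in siLox, against −1.75, −1.78, −1.81 and −2.48 in scr. At both probes siLox replicates 1 to 3 lay below all scr arrays, and siLox replicate 4 lay above scr replicate 4. The differences were −1.19 ± 0.33 (limma adjusted p = 0.0425) and −0.91 ± 0.26 (adjusted p = 0.0457), or 43.7% and 53.1% of the scr level, and the exact two-sided permutation test gave p = 0.0571 at each. The 2 probes followed each other over the 16 arrays (r = 0.98, slide means subtracted).

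Mfap5, the gene of the related glycoprotein MAGP-2, read 4.82, 4.92, 5.14 and 5.54 in siLox, against 5.84, 5.54, 5.54 and 5.44 in scr. The difference of −0.49 ± 0.17 did not pass (limma adjusted p = 0.0737; 0.0249 without siLox replicate 4 and 0.0325 with normexp background correction). Mfap4 encodes a fibrinogen-domain protein that binds elastin and fibrillin. It read −1.23, −0.63, −0.03 and 0.74 in siLox, against 0.17, −0.03, 0.16 and −0.18 in scr, so that the siLox arrays lay on both sides of all scr arrays. Its difference was −0.31 (95% interval −1.20 to 0.58, limma adjusted p = 0.580), and the SD was 0.84 in siLox and 0.17 in scr (n = 4 each).

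The emilins are glycoproteins found where elastin meets the microfibrils. Emilin1, whose protein restrains the maturation of TGF-beta, read −0.82, −0.44, −0.45 and 0.02 in siLox, against 0.35, 0.17, 0.22 and −0.02 in scr. Only siLox replicate 4 reached the range of scr. The difference was −0.60 ± 0.17 (limma adjusted p = 0.0448; exact two-sided permutation p = 0.0571). Emilin2 read 1.35, 1.60, 1.49 and 1.80 in siLox, against 2.06, 1.97, 1.94 and 1.86 in scr, with no overlap. Its difference was −0.40 ± 0.10 (limma adjusted p = 0.0349; exact two-sided permutation p = 0.0286), or 75.9% of the scr level. Groups of siLox and scr did not overlap at 28.7% of all probes tested, and did not at 2 of these 10.

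Within siLox, the arrays differed together. Replicate 1, with the lowest Lox, was the lowest of the group at 8 of the 10 probes, and replicate 4, with the highest Lox, was the highest at 8 of 10. In scr, replicate 1 was the highest at 9 probes and replicate 4 the lowest at 8. The mean deviation of the 10 probes from their group means was −0.35, −0.10, 0.01 and 0.43 in siLox and 0.23, −0.03, 0.05 and −0.26 in scr. Such a spread was not particular to these probes. On the second principal component of all probes tested, siLox replicates 1 to 4 stood at −41.0, −33.9, −32.0 and −14.3. There the scr replicates stood at 72.5, 37.3, 41.8 and 8.50, so replicate 4 of siLox and of scr lay nearest each other. With replicate 4 of both groups left out, 7 of the 10 probes were lower. In that setting 9745 of all 32430 probes passed in either direction, against 6851 with no array left out, so calls rose among all probes too. Mfap5 (−0.68, limma adjusted p = 0.0170) was the one added, and Mfap2 probe 1 differed by −1.67 and Fbn1 by −0.93. Whether the remaining Lox or another property of those arrays goes with these levels was not tested.

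**Figure D2:**
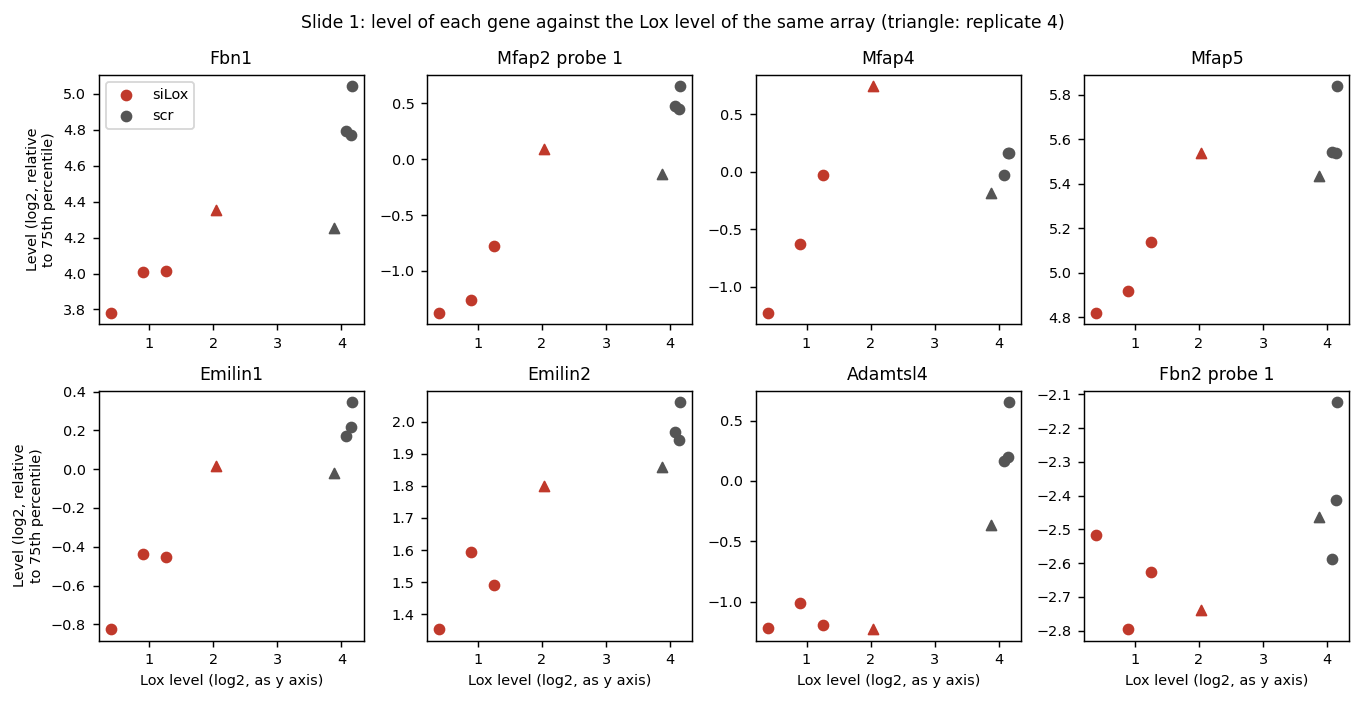
Level of each gene (y axis) against the level of Lox on the same array (x axis, both log2 relative to the 75th percentile) for the 4 siLox and 4 scr arrays of slide 1, with triangles for replicate 4. For Fbn1, Mfap2, Mfap4, Mfap5, Emilin1 and Emilin2 siLox replicate 4 (Lox at 2.04) is the highest siLox array, whereas Adamtsl4 stays between −1.23 and −1.01 in all 4.

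Genes that work with microfibrils, or only share the Mfap or Emilin name or fold, were read beside the 8 genes. They came from 6 lists with 56 genes, of which 50 were measured. In siLox, 15 were lower and 2 higher (21.1% of all probes passed in either direction), with a median difference of −0.33, and the 17 calls became 3 to 23 when 1 array was left out. Of 16 elastic fibre and assembly partners, 6 fell and 1 rose: Lox, the targeted gene (−2.92 ± 0.31), the fibulin genes Efemp1 (−0.81 ± 0.15), Fbln5 (−0.68 ± 0.14) and Fbln1 (−0.60 ± 0.13), the perlecan gene Hspg2 (−0.60 ± 0.16) and Loxl1 (−0.49 ± 0.13) were lower, and the versican gene Vcan (0.39 ± 0.09) higher. Fbln1, Loxl1 and Vcan complete that count and were named after their values were seen. The elastin gene Eln read −1.34, −1.03, −0.22 and 0.64 in siLox, against 0.89, 0.18, 0.54 and 0.23 in scr, and its difference of −0.95 ± 0.42 did not pass (limma adjusted p = 0.137). It too was highest in siLox replicate 4 among the siLox arrays.

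Of 6 measured ADAMTS and ADAMTSL relatives of Adamtsl4, Adamtsl5 alone passed (−0.27 ± 0.07, limma adjusted p = 0.0390). Of 6 measured genes that share the Mfap or Emilin name or fold, Emid1 (−0.98 ± 0.22) and Mfap3l (−0.51 ± 0.15) fell and 4 did not pass. Among 9 integrin receptor genes, Itga5, whose product pairs into the fibronectin receptor and also binds fibrillin, fell by 0.45 ± 0.10. Of 7 measured growth factor genes, Tgfb3 (−0.65 ± 0.16), Bmp5 (−0.60 ± 0.17, above background on 3 of 4 siLox arrays) and Tgfb2 (−0.59 ± 0.11) fell, and Bmp2 rose by 1.18 ± 0.30. Bmp2 read −0.04, −0.93, −0.91 and −1.16 in siLox, against −2.49, −2.0, −1.82 and −1.44 in scr, with no overlap. Of 6 measured proteases, the gelatinase gene Mmp2 (−0.57 ± 0.14) and the neutrophil elastase gene Elane (−0.47 ± 0.12) fell.

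**Figure D3:**
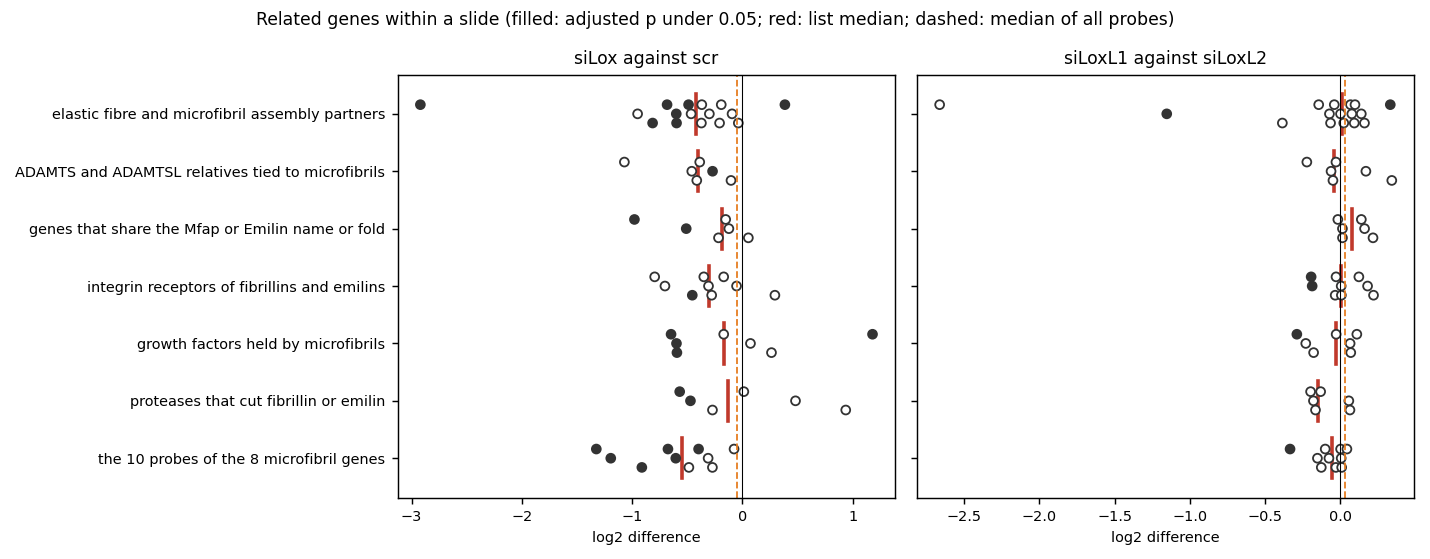
Log2 difference (x axis) of each measured gene of the 6 lists and of the 10 microfibril probes in siLox against scr (left) and siLoxL1 against siLoxL2 (right), with filled points past the limma threshold, red lines at the list medians and dashed lines at the median of all probes (−0.05 and 0.03). On the left most points lie below 0 with a median of −0.54 for the 10 probes, on the right they gather near 0; the open point at the far left of the right panel is Fn1, which read −2.60 on siLoxL1 replicate 4 alone and 8.25 to 8.33 on the other siLoxL1 arrays.

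Within slide 2, siLoxL1 was compared with siLoxL2, and Emilin1 was the one gene of the 8 that differed. Emilin1 read −0.34, −0.36, −0.23 and −0.42 in siLoxL1, against −0.13, 0.01, 0.07 and 0.03 in siLoxL2, without overlap. The difference was −0.33 ± 0.06 (limma adjusted p = 0.0227; exact two-sided permutation p = 0.0286), or 79.3% of the siLoxL2 level. In this comparison 6.73% of all probes passed in either direction and 2.32% were lower, beside 1 of these 10, and groups did not overlap at 19% of all probes. The Emilin1 call was kept without siLoxL1 replicate 3 or siLoxL2 replicate 1 and lost without any of the other 6 arrays (adjusted p up to 0.0688), so the count of called probes was 0 or 1. It was also lost in 1 fit of all 16 arrays (adjusted p = 0.229) and with dim probes kept (0.0720).

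The other 9 probes did not pass between siLoxL1 and siLoxL2. Their 95% intervals rest on the spread between arrays, which may be technical, and do not cover slide row or the choice of normalization. Adamtsl4 read 1.63, 1.60, 1.46 and 1.67 in siLoxL1, against 1.58, 1.62, 1.52 and 1.63 in siLoxL2 (95% interval of the difference −0.13 to 0.13). Emilin2 read 4.49, 4.59, 4.45 and 4.54 in siLoxL1, against 4.40, 4.60, 4.47 and 4.56 in siLoxL2 (−0.13 to 0.14). For Mfap5 the interval was −0.08 to 0.17 and for Fbn1 −0.26 to 0.01. The widest interval was that of Mfap4, −0.69 to 0.38, whose levels were −0.75, −0.30, −0.23 and −1.03 in siLoxL1 and −0.93, −0.16, −0.12 and −0.48 in siLoxL2. For Mfap2 the intervals were −0.35 to 0.15 at probe 1 and −0.23 to 0.17 at probe 2, and for Fbn2 −0.27 to 0.28 and −0.40 to 0.24. Of the 50 related genes 4 were lower (Loxl1, the targeted gene, at −1.15 ± 0.06, Tgfb2 at −0.29 ± 0.05, Itga8 at −0.19 ± 0.05 and Itga5 at −0.19 ± 0.05) and Vcan was higher (0.33 ± 0.05), with 2 to 4 called when 1 array was left out. Of all probes 6.73% passed in either direction. In the 3 lists where none passed, the 2 largest differences were those of Adamts17 (0.34 ± 0.11) and Adamtsl5 (−0.22 ± 0.06), Mfap3l (0.22 ± 0.07) and Mfap1a (0.16 ± 0.04), and Mmp13 (−0.20 ± 0.07) and Mmp2 (−0.18 ± 0.10), with limma adjusted p from 0.0679 to 0.283.

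Across the slides, Emilin2 and Adamtsl4 stood far higher in siLoxL1 and siLoxL2 than in scr, Mfap5 was slightly higher and Fbn2 lower. These comparisons share the scr arrays and the difference between slides. By the limma test 59.2% of all probes passed in siLoxL1 against scr and 58.3% in siLoxL2 against scr, so a pass says little about a gene. The share of all probes without overlap is not given for these comparisons, so a lack of overlap there says no more about a gene. Of the 10 probes, 3 were higher and 4 lower in siLoxL1 against scr, where 38.5% of all probes were higher and 20.7% lower. In siLoxL2 against scr 3 were higher and 2 lower, beside 36.7% and 21.7% of all probes. The median of all probes was shifted by 0.18 and 0.16, and of the calls 65.1% and 62.9% were higher; with normexp background correction the shifts were −0.16 and −0.16 and 39.6% and 38.4% of calls were higher, and with quantile normalization 55.0% and 53.0%.

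Emilin2, at the levels given above, differed from scr by 2.56 ± 0.06 in siLoxL1 (limma adjusted p = 2.39e-07) and by 2.55 ± 0.07 in siLoxL2 (adjusted p = 5.61e-07), or 5.89-fold and 5.86-fold. Relative to the shift of all probes these differences were 2.38 and 2.39, and they exceeded 99.5% of all probes. The differences stayed between 2.36 and 2.60 in siLoxL1 and between 2.42 and 2.59 in siLoxL2 under every alternative run. Adamtsl4 was 2.68-fold higher in each (1.42 ± 0.19 in log2 in each; adjusted p = 0.000407 in siLoxL1 and 0.000420 in siLoxL2), or 1.24 and 1.27 relative to the shift. In both genes the siLox arrays lay lowest, below scr, and the siLoxL1 and siLoxL2 arrays highest.

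Mfap5 read 6.10, 6.06, 5.94 and 6.05 in siLoxL1 and 5.91, 6.02, 6.07 and 5.99 in siLoxL2, each above all 4 scr arrays. Here too the slides differ, and the share of all probes without overlap is not given. The differences from scr were 0.45 ± 0.09 (limma adjusted p = 0.00389) and 0.41 ± 0.09 (adjusted p = 0.00674). They no longer passed with quantile normalization, at 0.15 (limma adjusted p = 0.217) and 0.17 (limma adjusted p = 0.161). Relative to the shift of all probes they were 0.27 and 0.25.

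Fbn2 was lower at both probes, which did not follow each other over the 16 arrays (r = −0.25, slide means subtracted). Probe 2 was dim, and the lowest level well above background differed between the slides. It was −5.50 to −4.65 on the scr arrays and −6.93 to −5.87 on slide 2. Probe 1 read −2.76, −2.89, −2.86 and −2.88 in siLoxL1 and −2.94, −3.16, −2.55 and −2.76 in siLoxL2, and differed from scr by −0.45 ± 0.10 and −0.45 ± 0.15 (limma adjusted p = 0.00567 and 0.0308). Probe 2 read −4.55, −4.37, −4.57 and −4.87 in siLoxL1 and −4.34, −4.34, −4.84 and −4.53 in siLoxL2, and differed by −0.74 ± 0.14 and −0.67 ± 0.15 (adjusted p = 0.00266 and 0.00630). In siLoxL1 every array lay below every scr array at both probes, and in siLoxL2 at probe 2 but not at probe 1. Without the share of all probes, this lack of overlap across the slides says no more about Fbn2. The siLoxL2 call of probe 1 was lost without scr replicate 1 (adjusted p = 0.0630) or 3 (0.0590) and without siLoxL2 replicate 1 (0.0747) or 2 (0.0708). Emilin1 was lower in siLoxL1 (−0.52 ± 0.09, adjusted p = 0.00128), and in siLoxL2 its difference of −0.18 ± 0.09 did not pass (adjusted p = 0.108; 0.0242 without scr replicate 4). Mfap4 was lower in siLoxL1 (−0.60 ± 0.19, adjusted p = 0.0232; lost without scr replicate 1 or 3 or siLoxL1 replicate 1, at up to 0.0629, and at 0.131 in 1 fit of all 16 arrays). In siLoxL2 its difference of −0.45 ± 0.19 did not pass (adjusted p = 0.0680; 0.0461 without siLoxL2 replicate 3 and 0.00966 with normexp).

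Fbn1 and Mfap2 passed in neither comparison across the slides. Fbn1 read 4.61, 4.79, 4.71 and 4.72 in siLoxL1 and 4.78, 4.82, 4.79 and 4.95 in siLoxL2, within the range of scr, with differences of −0.01 (95% interval −0.37 to 0.35) and 0.12 (−0.24 to 0.48). The sign turned with normexp in siLoxL1 (0.10) and with quantile normalization in siLoxL2 (−0.078). Mfap2 probe 1 gave 0.04 and 0.14, and probe 2 gave −0.23 and −0.20; without scr replicate 4 probe 2 passed at −0.41 (adjusted p = 0.0110) and −0.38 (adjusted p = 0.00146), while probe 1 did not. Probe 2 also passed with normexp in both, at −0.39 (adjusted p = 0.00428) and −0.38 (adjusted p = 0.00298).

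**Figure D4:**
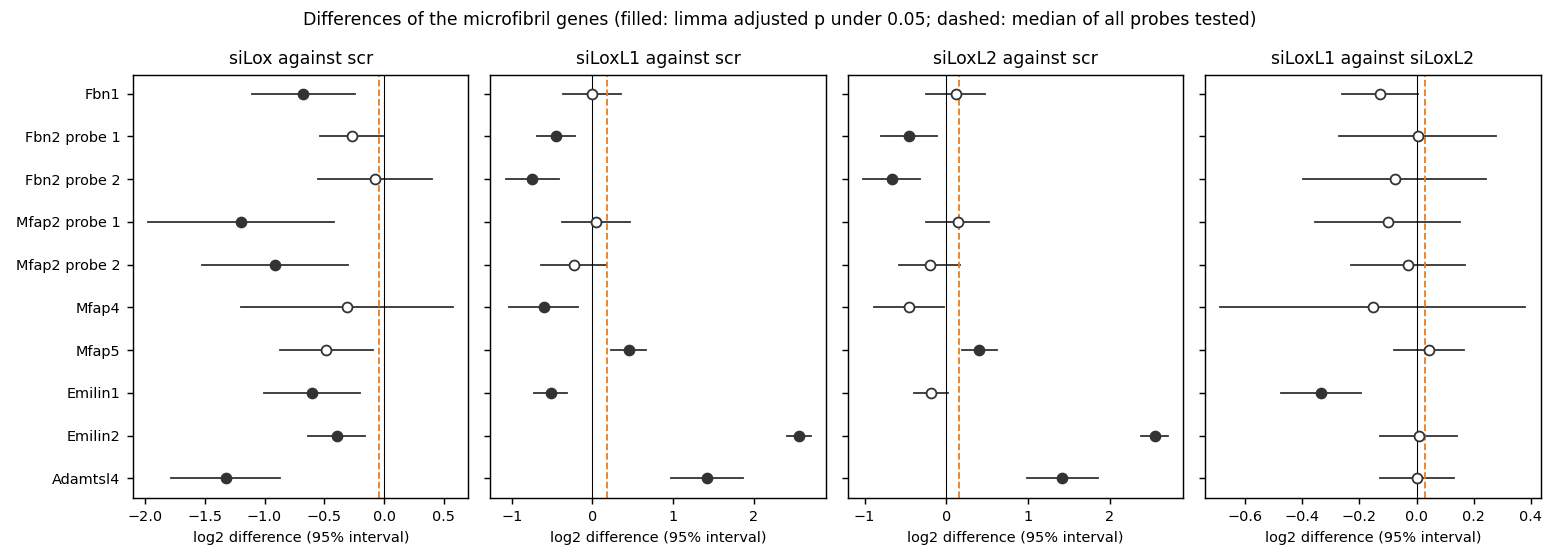
Log2 difference with its 95% interval (x axis) for each of the 10 probes (rows) in the 4 comparisons (panels), filled where the limma adjusted p was under 0.05, with a dashed line at the median of all probes. In siLox against scr all 10 points lie below 0 and 6 are filled; Emilin2 stands at 2.56 and 2.55 in the middle panels, and in siLoxL1 against siLoxL2 only Emilin1 is filled.

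Of the 50 related genes measured, 22 were higher and 15 lower in siLoxL1 against scr, and 19 were higher and 14 lower in siLoxL2 against scr. Of all probes 38.5% were higher and 20.7% lower in siLoxL1, and 36.7% higher and 21.7% lower in siLoxL2. The medians of the related genes were 0.18 in each, near those of all probes (0.18 and 0.16). Apart from Fn1, the furthest differences in siLoxL1 and siLoxL2 were those of the stromelysin gene Mmp3 (5.26 ± 0.10 and 5.20 ± 0.08), Eln (−4.66 ± 0.19 and −4.28 ± 0.18), Tgfb2 (−3.15 ± 0.11 and −2.86 ± 0.10) and the collagenase gene Mmp13 (2.64 ± 0.12 and 2.84 ± 0.13). Others among the assembly partners, growth factors, integrins and ADAMTSL relatives were Efemp1 (2.39 ± 0.14 and 2.32 ± 0.13), Bmp4 (−1.73 ± 0.08 and −1.50 ± 0.08), the integrin gene Itga4 (1.62 ± 0.08 and 1.40 ± 0.08), Vcan (1.56 ± 0.06 and 1.23 ± 0.06), the latent TGF-beta binding protein gene Ltbp4 (−1.48 ± 0.10 and −1.42 ± 0.10) and Adamtsl5 (0.89 ± 0.06 and 1.11 ± 0.08). Adamts17 was not well above background on any scr array, and no fold is given for it.

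Smaller differences across the slides, given in siLoxL1 and then in siLoxL2 against scr, ran in both directions. Adamts10 was higher (0.63 ± 0.15 and 0.66 ± 0.13) and Adamts6 lower (−0.64 ± 0.15 and −0.81 ± 0.15); both encode secreted metalloproteases of the ADAMTS family. The multimerin gene Mmrn2, whose product shares the emilin fold, was lower (−0.88 ± 0.07 and −0.90 ± 0.15), and so was Mfap1b (−0.58 ± 0.10 and −0.59 ± 0.09). Mfap3 was higher (0.40 ± 0.07 and 0.26 ± 0.07), where the siLoxL2 value was named after the values were seen. Mfap3l (−0.33 ± 0.12) and Mfap1a (−0.29 ± 0.06) were lower in siLoxL2 and did not pass in siLoxL1. The integrin genes Itgb6 (0.88 ± 0.19 and 0.87 ± 0.21, above background on 3 of 4 scr arrays), Itga8 (0.59 ± 0.17 and 0.79 ± 0.17) and Itgb5 (0.54 ± 0.13 and 0.58 ± 0.14) were higher. Among growth factors Bmp5 (−0.70 ± 0.12 and −0.76 ± 0.13) and Tgfb3 (−0.46 ± 0.13 and −0.43 ± 0.13) were lower. In siLoxL1 the protease gene Mmp2 was lower (−0.35 ± 0.12) and Elane higher (0.33 ± 0.09).

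The order of the group means was not the same in all genes. For Adamtsl4 and Emilin2 siLoxL1 and siLoxL2 did not differ beyond their spread, scr came next and siLox was lowest, with no overlap at either step. The step from the groups of slide 2 to scr also parts the slides. For Mfap5 the order was the same, with overlap between scr and siLox. Fbn1 stood at 4.83 ± 0.08 in siLoxL2, 4.72 ± 0.33 in scr and 4.71 ± 0.07 in siLoxL1, which overlapped, above 4.04 ± 0.24 in siLox (SD, n = 4 each). Mfap2 had siLox lowest at both probes, with overlap at each step of the order. For Emilin1 scr and siLoxL2 overlapped at the top, and siLoxL1 and siLox overlapped below them. For Fbn2 and Mfap4 scr was highest, siLox next and the groups of slide 2 lowest, with overlap at each step.

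After each slide's mean was subtracted, several of the 8 genes ran alike over the 16 arrays. This is a description without a test, and on slide 1 the arrays share the difference between siLox and scr. Fbn1 followed Mfap2 (r = 0.92), Emilin2 (0.91), Emilin1 (0.90), Adamtsl4 (0.89) and Mfap5 (0.87). Among these genes Adamtsl4 followed Emilin1 at 0.73 and Mfap5 at 0.76. Mfap4 followed Mfap2 at 0.72, Emilin1 at 0.71 and Adamtsl4 at 0.23, so no sharp line parted it from them. Fbn2 followed Adamtsl4 at 0.58 and Mfap4 at 0.07. Among 14601 genes, those most like Fbn1 were Fzd2, Ppp1r14a and Vldlr (r = 0.98 each), those most like Mfap2 were C1qtnf7, Spon2 and Gpx3 (0.98 each), and those most like Adamtsl4 were Nkain4 (0.99), Ccnd1 (0.99) and Gstm6 (0.98). Emilin1 ran most like Klhl30, Islr and the collagen gene Col6a1 (0.97 each), Emilin2 like Ctla2b (0.98), Crip1 (0.96) and Stimate (0.96), and Mfap5 like Vkorc1 (0.98), Fgf18 (0.98) and the collagen gene Col5a2 (0.97). For Mfap4 they were Pgm5, Cyp7b1 (0.91 each) and Sparcl1 (0.90), and for Fbn2, over its brighter probe, Akr1b3 (0.82), Slc31a2 (0.81) and Myl6b (0.80).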

How the data were processed

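The deposited scanner files give an intensity for every spot. Per the file headers it comes from Agilent Feature Extraction (10.7.3.1), after background subtraction and detrending. Flags in the same deposited files, scores of 0 or 1, mark spots well above background and outliers. The value table of the authors holds deposited log2 values, quantile normalized between arrays, with r between 0.997 and 0.999 to the scanner values. Each of its columns has a median of 4.84, and its centring is not stated. Outlier spots were left out, spots of a probe averaged, and log2 levels taken relative to the 75th percentile of each array. Probes were tested if the 4 arrays of some group were all well above background. No spot was saturated. Gene names come from RefSeq (GRCm38.p6) where an accession matched, which held for 28325 probes and for all 10 described here, and otherwise from the array. The brightest probe stands for a related gene.

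Each comparison was fitted on its 8 arrays with limma 3.58.1 (lmFit, eBayes) in R 4.3.3, adjusted by Benjamini-Hochberg over 32430 probes with a threshold of 0.05, and the fit was tested on simulated data. Every probe of the 8 genes is named; per list and comparison up to 4 genes that passed with the largest difference, or the 2 largest where none passed, and per gene the 3 most alike. Genes and lists were chosen with earlier results of these data known. The alternatives were 1 fit of 16 arrays, normexp (offset 50), quantile normalization, the value table, no filter, 1 probe per gene, a replicate block, array weights and arrays left out. The number of arrays limits the precision.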

Additional observations from a re-analysis of the deposited data

Results flagged for a closer look

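Each of the 40 groups of 4 arrays (10 probes in 4 groups) was checked for an array whose gap to the nearest other array was more than 0.829 of the group's range (Dixon's 95% value), which chance gives for about 1 group in 20. It was found in 3 groups. For Mfap2 probe 2 in scr, replicate 4 read −2.48, with the nearest array at −1.81. For the same probe in siLoxL2, replicate 1 read −2.25, with the nearest at −2.14. For Adamtsl4 in siLox, replicate 2 read −1.01, with the nearest at −1.19.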

How the results depend on the processing

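Adamtsl4 in siLox kept its direction under every alternative run and its call in all but the replicate block (adjusted p = 0.0818). Emilin2 and Adamtsl4 against scr across the slides kept direction and call in all of them. In siLox against scr the 10 probes gave 6 calls, the related genes 17 and all probes 6851. In that order, no filter on dim probes gave 1, 4 and 2623 (more probes are then adjusted over) and the replicate block 0, 0 and 0 by limma (7, 21 and 9671 had an unadjusted p under 0.05). One fit of 16 arrays called 33 related genes and 12844 probes, array weights 31 and 11824, and leaving out replicate 4 of both groups 29 and 9745. Leaving out 1 array gave 1 to 7, 3 to 23 and 1745 to 9937. In siLoxL1 against scr (7, 37 and 19187) and siLoxL2 against scr (5, 33 and 18920), no filter gave 33809 and 32794 probes, and leaving out 1 array gave 6 to 8, 31 to 40 and 17092 to 20223, and 4 to 7, 30 to 37 and 16630 to 19915. In siLoxL1 against siLoxL2 (1, 5 and 2182) the counts were 0, 2 and 1033 with 16 arrays, 0, 2 and 412 without the filter, 0, 2 and 515 with the replicate block, and 0, 1 and 162 without replicate 4 of both groups; in each of these 4 settings 1 of the 10 probes had an unadjusted p under 0.05. Normexp gave 8 related genes there, and leaving out 1 array 0 to 1, 2 to 4 and 564 to 1320.

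Differences that changed sign were small and had not passed. With normexp, Fbn2 probe 2 read 0.027 (siLox against scr), Fbn1 0.10 (siLoxL1 against scr) and Adamtsl4 −0.031 (siLoxL1 against siLoxL2). Fbn1 in siLoxL2 against scr read −0.078 with quantile normalization, −0.081 with the authors' table and −0.074 without replicate 4 of both groups, where Mfap2 probe 1 read −0.054 in siLoxL1 and −0.047 in siLoxL2 against scr. With array weights Mfap2 probe 1 read −0.013 in siLoxL1. In siLoxL1 against siLoxL2, quantile normalization gave −0.017 for Mfap5, −0.055 for Emilin2 and −0.029 for Adamtsl4, and the authors' table −0.017, −0.054 and −0.028. Without replicate 4 of both groups Fbn2 probe 2 read 0.011, Mfap2 probe 2 0.049 and Adamtsl4 −0.012, and with array weights Fbn2 probe 1 read −0.056. Leaving out 1 array gave, in siLox against scr, −0.22 to 0.091 for Fbn2 probe 2 and −0.65 to 0.0034 for Mfap4. Against scr it gave −0.16 to 0.10 for Fbn1 and −0.13 to 0.14 for Mfap2 probe 1 in siLoxL1, and −0.036 to 0.23 and −0.024 to 0.24 in siLoxL2. In siLoxL1 against siLoxL2 the ranges were −0.098 to 0.10 and −0.19 to 0.017 for the Fbn2 probes, −0.088 to 0.036 for Mfap2 probe 2, −0.029 to 0.039 for Emilin2 and −0.026 to 0.045 for Adamtsl4. The cause of these changes was not tested. Replicate numbers were not taken as pairs, since no label says what they share and not every equal-numbered pair exceeded 0.1. Deviations of equal-numbered arrays correlated at −0.15 to −0.0036 between siLox and scr, at −0.038 to 0.033 between siLoxL1 or siLoxL2 and scr, and at 0.039 to 0.20 between siLoxL1 and siLoxL2, where 3 of 4 pairs exceeded 0.1 and arrays of unequal number lay between −0.12 and 0.042. There replicates 1 to 3 of siLoxL1 correlated best with their own number in siLoxL2 and replicate 4 with number 1, a hint of shared numbers from the data, and Emilin1 had an adjusted p of 0.0570 with the replicate block. The slide as a block was not run, since each comparison lies in 1 slide or is confounded with it.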

Other observations

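The brightest Fn1 probe, the gene of fibronectin, on which fibrillin assembles in culture, read −2.60 on siLoxL1 replicate 4, and 8.25, 8.33 and 8.28 on siLoxL1 replicates 1 to 3. The other 12 arrays lay between 7.74 and 8.25, and no difference is given for Fn1 in comparisons with siLoxL1. This probe was singled out after its values were seen.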
